A study of Mus musculus with 2 samples.

Results

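The 10 genes described here encode proteins that coat lipid droplets and enzymes that empty them: the perilipins Plin1, Plin2, Plin3, Plin4 and Plin5, the CIDE proteins Cidea and Cidec, and the lipases Lipe, Pnpla2 and Mgll. They were chosen by symbol, and all 10 were found among the 23358 genes listed for the ileum, which ends the small intestine. Group E were 21-day-old BALB/c mice that received 0.1 ml of physiological saline into the peritoneum, 0.2 ml of castor oil by mouth and, 0.5 h after the start, 0.3 ml of ellagic acid (EA, a plant polyphenol) at 10 mg/ml by mouth. Group D differed in the last step only, where 0.3 ml of physiological saline took the place of EA. The treatment was given once a day for 3 days to 10 mice per group, and 2 libraries per group were sequenced, but how many mice went into a library is not stated in the sources used here. Both groups had castor oil, so the values say nothing of ileum without it. The study reports diarrhea in every mouse of group D but in few of group E. A difference between the groups therefore goes with diarrhea as well as with EA, and these cannot be told apart here.

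A lipid droplet is a store of triglyceride and sterol ester inside a cell, bounded by a single layer of phospholipid. Perilipins cover this surface and decide how easily lipases reach the fat, and CIDE proteins sit where droplets touch and let small droplets pass their lipid to large ones. Pnpla2 (adipose triglyceride lipase), Lipe (hormone-sensitive lipase) and Mgll (monoglyceride lipase) then take fatty acids off the glycerol in turn. Plin1, Plin4, Cidec, Cidea and Lipe are best known from fat cells and are called fat-cell droplet genes below, whereas Plin2, Plin3 and Mgll are found in many tissues. In the small intestine, enterocytes hold absorbed fat for a time in droplets that carry Plin2 and Plin3. Pnpla2 and Plin5 lie between these sets, since Pnpla2 is widespread but strongest in fat, and Plin5 belongs to heart, muscle and other tissues that burn fat.

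Each gene had 1 value per group in FPKM, that is, fragments for each kilobase of a transcript relative to all mapped fragments. There were therefore no replicates, no SD and no test of any difference, and no counting error can be given. The study states the reads of each library, but the share that mapped and how 2 libraries were joined into 1 value are not stated in the sources used here. Differences are given as log2 of the group E value over the group D value, with nothing added to either. A gene was called higher or lower at a fold above 2, provided that both values were above 0 and at least 1 FPKM was reached in either group. Over the 12957 genes that met the last condition the median log2 difference was 0.01, with the central 95% between -0.87 and 0.82. Of these genes 1.77% were called higher and 1.74% lower in group E. The shares were 5.37% and 5.9% at a fold above 1.5, and 0.262% and 0.378% at a fold above 4. Some values at or near 0 can be failed estimates: Gapdh, which every cell uses, was listed at 2.98 FPKM in group E and 0.120 FPKM in group D, although it was the only 1 of 10 such genes to be called and Actb stood at 4745 FPKM in group E and 4630 FPKM in group D.

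The promoters of the 3 members called higher (Plin1, Plin4 and Cidec) and of the 2 most abundant ones (Plin2 and Plin3) are shown so that their letters can be read beside the values. They are RefSeq sequence of up to 250 bases before a listed start of transcription, read 5′ to 3′ on the gene's strand. Bases that the GENCODE annotation places in an exon are left out. For Plin1, Plin2, Plin4 and the second start of Cidec, the listed start lies inside the RefSeq gene. The RefSeq gene reaches to 86670217 for Plin2 and 56109948 for Plin4. Bases printed for these 2 genes and for the second start of Cidec therefore lie partly or wholly within the gene. Distances are counted from the listed starts. Capitals mark 5 motifs on either strand. They are the half-site that nuclear receptors such as PPAR-γ bind, written AGGTCA. Another is the core that C/EBP factors bind, written TTGCNNAA. The others are the CCAAT box, the Sp1 box with the letters GGGCGG, and the start of a TATA box, written as TATAA. Where matches touch or overlap, the capitals run together.
Plin1 (GRCm38.p6, chr7:79732904-79733026, minus strand): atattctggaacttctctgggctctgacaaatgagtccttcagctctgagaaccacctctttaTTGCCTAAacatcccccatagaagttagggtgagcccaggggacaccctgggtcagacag
Plin4 (GRCm38.p6, chr17:56109804-56110032, minus strand): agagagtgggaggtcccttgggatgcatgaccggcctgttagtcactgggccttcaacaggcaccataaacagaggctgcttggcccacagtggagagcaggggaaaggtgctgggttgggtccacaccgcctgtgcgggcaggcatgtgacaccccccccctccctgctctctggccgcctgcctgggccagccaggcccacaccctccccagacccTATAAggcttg
Cidec, first start (GRCm38.p6, chr6:113435761-113436010, minus strand): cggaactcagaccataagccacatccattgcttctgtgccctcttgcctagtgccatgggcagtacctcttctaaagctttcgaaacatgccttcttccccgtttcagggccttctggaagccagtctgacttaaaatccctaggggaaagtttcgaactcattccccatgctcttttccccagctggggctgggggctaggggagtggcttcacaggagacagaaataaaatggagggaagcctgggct
Cidec, second start (GRCm38.p6, chr6:113434765-113435014, minus strand): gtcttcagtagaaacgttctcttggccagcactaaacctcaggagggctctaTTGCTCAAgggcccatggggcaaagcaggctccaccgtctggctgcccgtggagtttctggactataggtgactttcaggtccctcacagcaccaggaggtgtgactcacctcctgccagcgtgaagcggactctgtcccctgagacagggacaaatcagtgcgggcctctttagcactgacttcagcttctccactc
Plin2 (GRCm38.p6, chr4:86670061-86670309, minus strand): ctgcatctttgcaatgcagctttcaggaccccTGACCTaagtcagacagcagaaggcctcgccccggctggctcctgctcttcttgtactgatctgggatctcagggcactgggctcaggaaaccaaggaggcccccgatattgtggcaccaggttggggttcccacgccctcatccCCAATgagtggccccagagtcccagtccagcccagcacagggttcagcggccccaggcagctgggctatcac
Plin3 (GRCm38.p6, chr17:56290512-56290761, minus strand): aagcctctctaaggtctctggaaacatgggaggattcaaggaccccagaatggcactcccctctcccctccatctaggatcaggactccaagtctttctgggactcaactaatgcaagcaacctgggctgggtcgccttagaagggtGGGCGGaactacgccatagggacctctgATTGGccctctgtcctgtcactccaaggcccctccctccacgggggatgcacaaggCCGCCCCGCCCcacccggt

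The full PPAR element AGGTCANAGGTCA was in none of the 13 start sites of the 9 members matched, and in 0.0335% of 32851 mouse promoters of the same length. At so low a share a match was not to be expected here, so its absence says nothing about these genes. The half-site AGGTCA, which is part of that element, was found before Plin2 and before 1 start of Plin5 and in 14% of all promoters. The C/EBP core TTGCNNAA was found 187 and 58 bases before the start of Plin1, the nearer match in an annotated exon and so not printed, and 198 bases before the second start of Cidec. It was in 9.56% of all promoters and before no other member matched. TATAA stood 32 bases before the start of Plin4 and also before 1 start of Plin5, and in 22.8% of all promoters. CCAAT was found before Plin2, Plin3, 1 start of Plin5 and Plin4, there in an annotated exon and not printed, and in 33.8% of all promoters. GGGCGG was found at 6 of the 13 start sites, among them those of Plin3, Pnpla2 and the first start of Lipe, and in 32.7% of all promoters. These are matches of letters in a short window. They are no measure of binding.

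Plin1, which guards the large droplet of fat cells and releases its lipase activator when phosphorylated, was listed at 15.2 FPKM in group E and 0.0495 FPKM in group D. The gene was the 4888th most abundant of 23358 in group E and the 16541st in group D. Its log2 difference of 8.26 was the 7th highest among the 12957 genes, but its size hangs on a group D value near 0, where the table can fail. With 0.1 or 1 FPKM added to both values it was 6.68 or 3.95. Plin1 passed the filter on low values only through group E.

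Plin4, a perilipin that coats small and newly formed droplets of fat cells, was listed at 14.3 FPKM in group E and 3.24 FPKM in group D. The log2 difference of 2.14, a fold of 4.42, was the 29th highest, and it was 1.85 with 1 FPKM added. In group E Plin4 and Plin1 thus stood at nearly the same level, while in group D only Plin4 was above 1 FPKM.

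Cidec, whose protein fuses droplets and without which fat cells of mice hold many small droplets, was the most abundant fat-cell droplet gene in both groups, at 83.4 FPKM in group E and 32.9 FPKM in group D. Its fold of 2.54 (log2 1.34) was at rank 108 from the highest and hardly changed with 1 FPKM added (log2 1.32). Neither value of Cidec is near 0. Cidea, its relative of brown fat, was under 1 FPKM in both groups, at 0.456 FPKM in group E and 0.0857 FPKM in group D. The log2 difference of 2.41 between these low values was 0.42 with 1 FPKM added, and Cidea was not counted as called.

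Lipe, which hydrolyses diglyceride and is switched on by protein kinase A, was listed at 38.9 FPKM in group E and 30.0 FPKM in group D, a log2 difference of 0.37. The deposited table marks this row FAIL in its status column, 1 of 6 such rows, and gives it a position that Lipe shares with 4 other genes. Of the 5 fat-cell droplet genes, all had the higher value in group E and 3 were called higher. Among the genes with at least 1 FPKM in either group these shares were 50.9% and 1.77%. Cidea, among the 5, was under that level. The 5 genes had a median log2 difference of 2.14 and summed to 152 FPKM in group E and 66.3 FPKM in group D. Cidec made up most of the difference between those sums. In group D Cidec (32.9 FPKM) and Lipe (30.0 FPKM) held most of the sum, while Plin1 was at 0.0495 FPKM. The name of the set refers to where these genes are best known, and the cells behind the values were not tested.

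**Figure D1:**
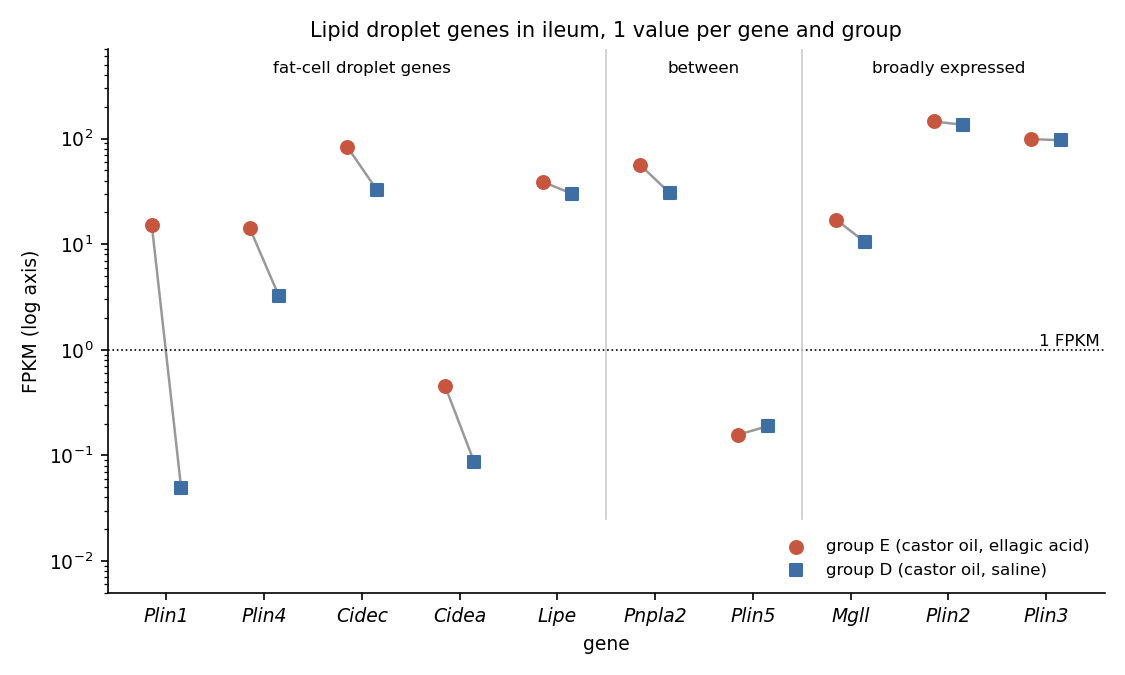
FPKM of the 10 genes on a log axis, with a red circle for group E and a blue square for group D joined by a line, 1 value each and no error. Plin1, Plin4 and Cidec are set apart by their lower group D values, and so is Cidea, with both its values under 1 FPKM. Plin2 lies almost level, at 145 FPKM in group E and 135 FPKM in group D. So does Plin3, at 98.8 FPKM in group E and 96.3 FPKM in group D.

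The broadly expressed members were more abundant and differed less. Plin2, the perilipin that appears on droplets of most cells and is degraded when no lipid is stored, was listed at 145 FPKM in group E and 135 FPKM in group D, a log2 difference of 0.10. Plin3, which moves from the cytosol to forming droplets, was at 98.8 FPKM in group E and 96.3 FPKM in group D, a log2 difference of 0.04. That of Plin3 became 0.00 after upper-quartile scaling or relative to Actb. Of all 12957 genes, 37.3% had a log2 difference at least that of Plin2 and 45.8% one at least that of Plin3, so both were close to the middle of the table. Mgll, which also breaks down the endocannabinoid 2-arachidonoylglycerol and absorbed monoglyceride in the gut, was at 17.1 FPKM in group E and 10.4 FPKM in group D. Its log2 difference of 0.73 did not reach the 2-fold line, and 3.26% of genes had one as high or higher. The 3 genes had a median log2 difference of 0.10, against 2.14 for the 5 fat-cell droplet genes, a gap of 2.04 that no test can be put to here. It was 1.22 with 1 FPKM added and 1.24 with at least 0.5 FPKM asked of both groups, which leaves out Plin1 and Cidea, and 1.64 with either of these left out alone.

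Of the other members, Pnpla2, the enzyme that starts triglyceride breakdown, was listed at 55.9 FPKM in group E and 30.4 FPKM in group D. Its log2 difference of 0.88 (1.84-fold) lay under the 2-fold line, at rank 282 from the highest, where 2.18% of genes were as high or higher. Plin5, which ties droplets to mitochondria, was at 0.157 FPKM in group E and 0.189 FPKM in group D. It was the only member with the lower value in group E, and at so low a level no difference can be read from it. In all, 9 of the 10 genes had the higher value in group E, against 50.9% of the genes with at least 1 FPKM in either group. The 9 include Cidea, which was under that level. Calls came to 3 higher and 0 lower among the 10, of which 8 reached 1 FPKM in either group and 7 in both, beside 1.77% and 1.74% of all genes. At a fold above 1.5 Pnpla2 and Mgll were called higher too, which made 5, and at a fold above 4 Plin1 and Plin4 were left.

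**Figure D2:**
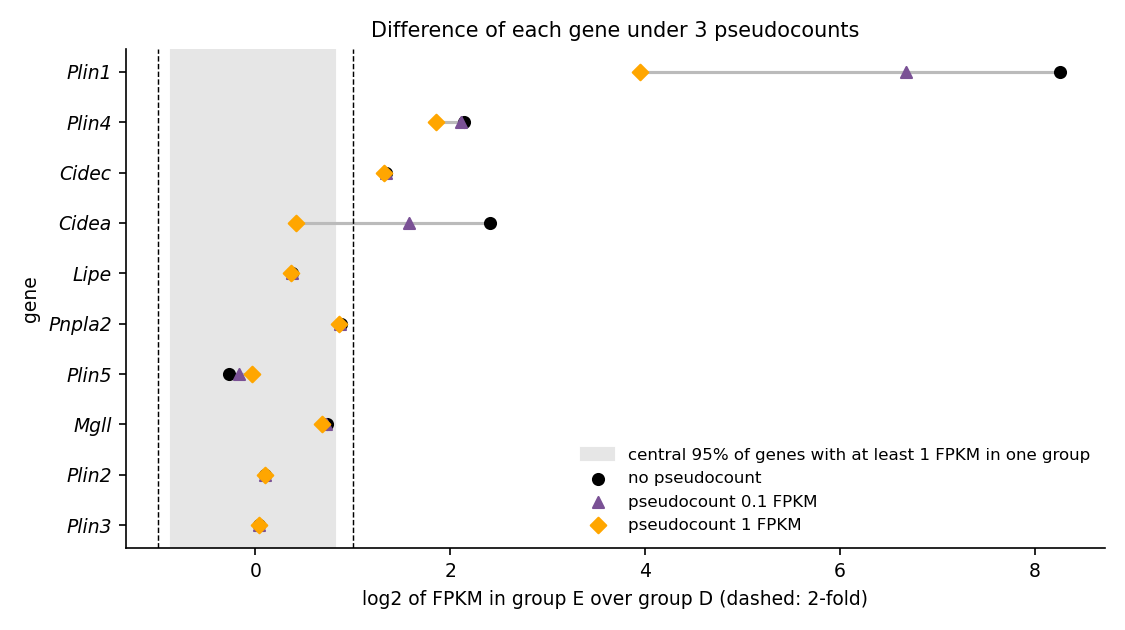
Log2 ratio of the FPKM of group E to those of group D for each gene without a pseudocount (black circles) and with 0.1 FPKM (purple triangles) or 1 FPKM (orange diamonds) added, over a grey band that spans the central 95% of genes (-0.87 to 0.82). Plin1 and Cidea shift to the left as the pseudocount grows, Plin4 and Cidec stay beyond the dashed 2-fold line, and Plin2 and Plin3 lie near 0.

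Since FPKM are per length, the members of a family can be set beside each other. The 5 perilipins summed to 273 FPKM in group E and 235 FPKM in group D. Plin2 and Plin3 made up 89.1% of that sum in group E and 98.5% in group D, and Plin1 and Plin4 10.8% in group E and 1.40% in group D. The ratio of Plin2 to Plin3 was 1.46 in group E and 1.40 in group D. Among the CIDE genes, Cideb, the member of liver and intestine that loads lipid onto lipoproteins, was at 102 FPKM in group E and 83.4 FPKM in group D. Cidec took 44.8% of the summed CIDE level in group E and 28.3% in group D. The 3 lipases summed to 112 FPKM in group E and 70.8 FPKM in group D. Pnpla2 was 49.9% of this in group E and 43.0% in group D, Lipe 34.7% in group E and 42.4% in group D, and Mgll 15.3% in group E and 14.6% in group D. The lipase sums and shares rest in part on the Lipe row, which is marked FAIL and shares its position with 4 other genes.

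**Figure D3:**
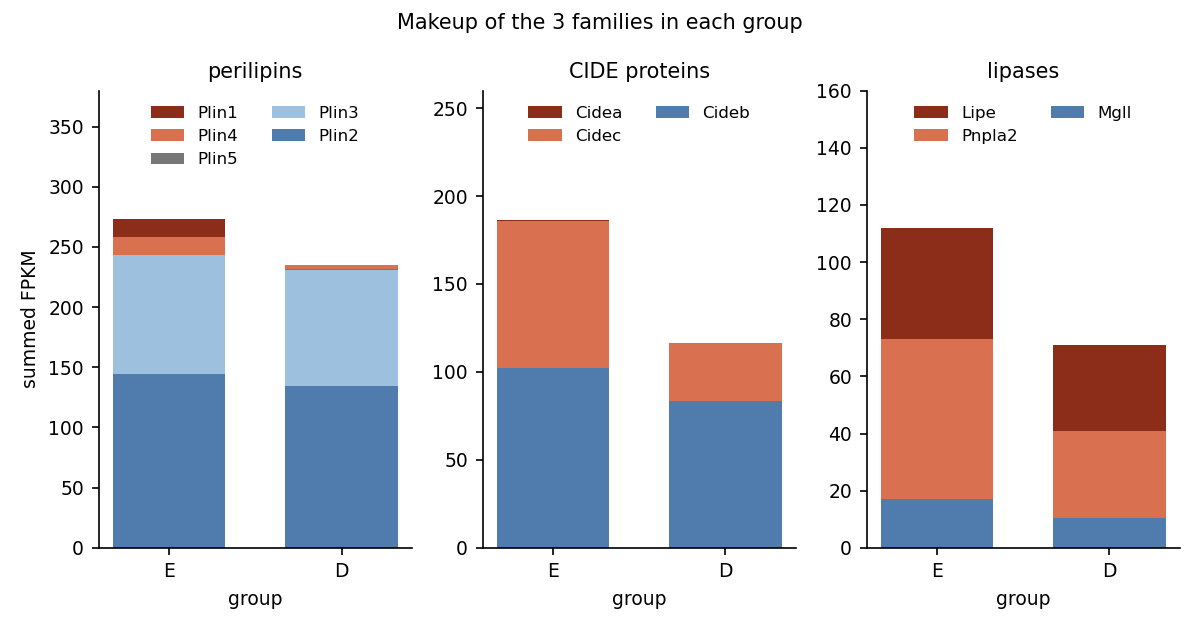
Summed FPKM of the perilipins, CIDE genes and lipases in group E (left bars) and group D (right bars), split by gene. The red parts hold Plin1 and Plin4, which are 10.8% of the perilipin sum in group E and 1.40% in group D, and Cidec is the larger part of the difference between the CIDE bars.

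The genes lie on 5 chromosomes of the mouse. The deposited positions name no build. With 1 added to each start, all 10 overlap the RefSeq gene of that name on GRCm38.p6, and 4 starts are identical to it. Plin1 was listed on chromosome 7 from 79721164 to 79732776 and Cidec on chromosome 6 from 113424636 to 113435755. Plin4 (chromosome 17, 56079657 to 56109802) and Plin5 (56111601 to 56117548) are neighbours 1.80 kb apart, and Plin3 (56278962 to 56290511) follows 161 kb further on, with other genes between Plin5 and Plin3. Hdgfrp2, which the table lists at the same position as Plin4, had a log2 difference of 0.03. How reads in such a joined position were divided is not stated in the sources used here. The nearest genes with at least 1 FPKM on either side of Plin1 (Ticrr and Pex11a), Plin4 (Ubxn6 and Lrg1) and Cidec (Rpusd3 and Jagn1) had log2 differences between -0.40 and 0.36, and none was called. Lipe was listed from 25376819 to 25566417 on chromosome 7, a span of 189599 bases that also holds Ceacam1, at 399 FPKM in group E and 326 FPKM in group D.

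Genes that control lipolysis included 3 called higher and 0 called lower among 11 of 13 with at least 1 FPKM in either group, with a median log2 difference of 0.41, beside 1.77% and 1.74% of all genes called higher and lower and an overall median of 0.01. Of the 3, Adrb3 and Adora1 passed the filter on low values only through group E, and Prkar2b and Adora1 were no longer called with 1 FPKM added. Adrb3, the adrenergic receptor of fat cells, was at 2.12 FPKM in group E and 0.536 FPKM in group D. Prkar2b, a regulatory subunit of protein kinase A, was at 6.40 FPKM in group E and 2.76 FPKM in group D. Adora1, an adenosine receptor that restrains lipolysis, was at 1.33 FPKM in group E and 0.454 FPKM in group D. The cofactor of Pnpla2, Abhd5, was at 11.6 FPKM in group E and 11.5 FPKM in group D, and its inhibitor G0s2 at 8.11 FPKM in group E and 4.40 FPKM in group D. G0s2 therefore stood 1.84-fold higher, as Pnpla2 did, without passing the 2-fold line. Pde3b, which ends the signal by breaking down cAMP, was at 10.5 FPKM in group E and 6.47 FPKM in group D, and Prkaca, the catalytic subunit of the kinase, at 30.4 FPKM in group E and 31.1 FPKM in group D.

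Of 13 genes of droplet formation with at least 1 FPKM (of 14 listed), 0 were called in either direction, and the median log2 difference was 0.09. Of all genes 1.77% were called higher and 1.74% lower, so 0 calls in a list this short sets these genes apart from no others. Dgat1 and Dgat2, which complete the triglyceride, were at 99.1 FPKM and 89.6 FPKM in group E, against 152 FPKM and 84.2 FPKM in group D. Mogat2, the enterocyte enzyme that rebuilds diglyceride from absorbed monoglyceride, was at 142 FPKM in group E and 148 FPKM in group D. Agpat2, another acyltransferase of triglyceride synthesis, was at 272 FPKM in group E and 200 FPKM in group D. Leaving Plin2 and Plin3 aside, each of these 4 enzymes was listed above every other member in both groups, and Agpat2 was above Plin2 and Plin3 too.

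Among 13 other droplet proteins and lipases with at least 1 FPKM (of 14), 2 were called higher and 0 lower, with a median of 0.07. Ces1d, a carboxylesterase that hydrolyses triglyceride in fat and liver, was at 19.7 FPKM in group E and 5.16 FPKM in group D, and Aadac, a related hydrolase, at 9.53 FPKM in group E and 4.22 FPKM in group D. Ces1d belongs to a family of related genes, and how reads that fit more than one gene were counted is not stated in the sources used here. The droplet proteins Hsd17b11 (207 FPKM in group E and 209 FPKM in group D), Rab18 (47.8 FPKM in group E and 45.3 FPKM in group D) and Aup1 (62.6 FPKM in group E and 47.3 FPKM in group D) lay within a 2-fold difference. PPAR-γ, the receptor that drives many droplet genes in fat cells, was called higher, with Pparg at 8.40 FPKM in group E and 4.04 FPKM in group D. Its fold of 2.08 was just past the line, and it was 1.86 with 1 FPKM added, where the call is lost. The study itself reports a larger rise of PPAR-γ, both by sequencing and by qRT-PCR. Its relatives Ppara (20.5 FPKM in group E and 26.7 FPKM in group D) and Ppard (24.9 FPKM in group E and 18.9 FPKM in group D) were not called. Nor were the partner Rxra (40.2 FPKM in group E and 41.3 FPKM in group D) and the coactivator Ppargc1a (7.60 FPKM in group E and 8.37 FPKM in group D). Over these 4 lists, 6 of 42 genes with at least 1 FPKM were called higher and 0 lower, beside 1.77% and 1.74% of all genes. With 1 FPKM added 3 of the 6 calls were left, those of Adrb3, Ces1d and Aadac. The 4 lists were drawn up by hand with earlier results of these data known. Of 40 genes with at least 1 FPKM annotated with regulation of lipolysis in adipocytes, members aside, 2 were called higher and 2 lower, beside the same shares of all genes. The lower ones, Fabp4 and Ptger3, were on none of the 4 lists.

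Fat-cell markers did not go one way. Of 15 adipocyte markers, Adipoq, Car3, Adig and Trarg1 (listed as Tusc5) were called higher, and Cfd, Retn, Mrap and Lep were listed at 0 in group D but at 1 FPKM or more in group E. Fabp4, Lpl, Thrsp and Arxes2 were called lower, Fabp4 at 25.6 FPKM in group E and 536 FPKM in group D. Cfd, a protease that fat cells secrete, was at 274 FPKM in group E and listed at 0 in group D, and Car3 at 356 FPKM in group E and 0.0310 FPKM in group D. The summed level of the 15 was 855 FPKM in group E and 710 FPKM in group D, and no defining marker was at 0 in group E. The median log2 difference of the 11 markers that have one and reach 1 FPKM was -0.17, and 1.95 with the 4 listed at 0 in group D placed above them. Plin1, Plin4 and Cidec went with Adipoq and against Fabp4, and the part of fat cells in their values was not tested. Whether single rows of the table hold the values of the groups exchanged could not be settled from it. An exchange would turn the direction of the gene concerned, be it a marker or Plin1, Plin4 or Cidec. In bulk tissue, fewer fat cells and less RNA per fat cell cannot be told apart. Of 7 brown fat markers, 3 reached 1 FPKM in either group, 0 were called higher and 1 lower, Cox8b with 0.369 FPKM in group E and 2.18 FPKM in group D. The defining markers Ucp1 and Elovl3 were listed at 0 in both groups.

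Markers of other cells of the gut wall bear on where these droplet genes were measured. Enterocyte markers showed the tissue to be small intestine, with Fabp2 at 3327 FPKM in group E and 3910 FPKM in group D and Fabp6, the bile acid carrier of the ileum, at 3846 FPKM in group E and 5698 FPKM in group D. They summed to 14010 FPKM in group E and 16594 FPKM in group D, and 1 of 11, Lct, was called higher. All 5 endothelium markers were higher in group E without being called, with a median of 0.57 and sums of 59.5 FPKM in group E and 41.3 FPKM in group D. Smooth muscle (820 FPKM in group E and 737 FPKM in group D) and macrophages (40.6 FPKM in group E and 39.7 FPKM in group D), which also carry Plin2, had 0 markers called. Of the mesothelium, which covers mesenteric fat, 4 of 5 markers were under 1 FPKM in both groups, as were 5 of 6 markers of pancreatic acinar cells. The part of any of these cells in the droplet genes was not tested.

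**Figure D4:**
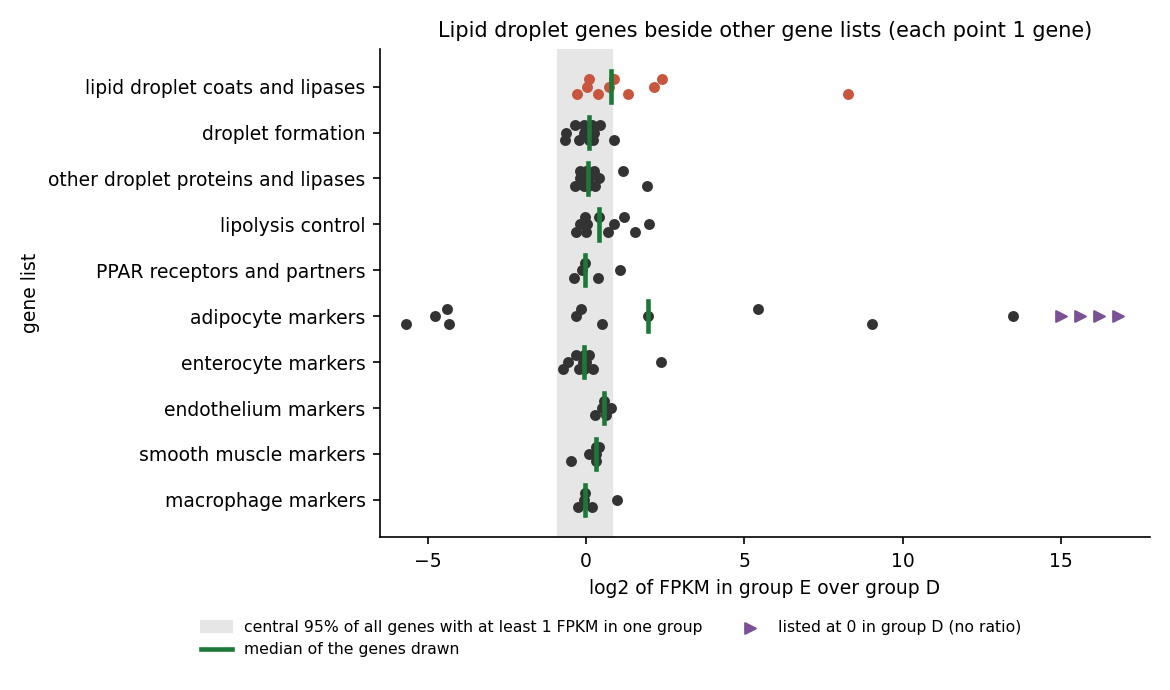
Log2 ratio of the FPKM of group E to those of group D for the 10 droplet genes (red) and for genes with at least 1 FPKM in either group on other lists (black), with green lines at the medians, arrowheads for genes listed at 0 in group D, counted above all others in the median, and a grey band for the central 95% of all genes. Adipocyte markers spread from -5.69 to 13.49, while droplet formation stays between -0.66 and 0.90.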

How the data were processed

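Ileum RNA of groups E and D was sequenced as paired-end reads from libraries made with a stranded kit, and whether strand was used in counting is not stated in the sources used here. Per the labels and the methods of the study, the authors aligned with TopHat 2.0.12 on a Bowtie 2.2.3 index, with DESeq 1.18.0 for the comparison. The deposited table gives 1 FPKM value per gene and group. The joining of libraries into that value and their scaling are not stated in the sources used here. Its fold changes, P-values, q-values and DEG calls, and a second table of enriched KEGG pathways, hold the authors' own comparison and were not used.

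From the FPKM, log2 of E over D, calls at a fold above 2, medians and sums were computed with Python 3.11.15, numpy 2.4.6 and pandas 2.3.3, and drawn with matplotlib 3.10.9. The calling code was run on simulated data in which set genes had exact folds past the line and no group D value was near 0. This checks the code only, and it says nothing about calls on values near 0, such as that of Plin1. The members and gene lists were chosen with earlier results of these data known. All members were named, with the 4 genes of highest mean FPKM on each list where the text turns on them and every called gene on pathway lists. Markers named because they were at 0 or called were picked after their values were seen. Alternatives were other folds, pseudocounts, filters and scalings. Promoters are RefSeq GRCm38.p6, exons GENCODE M21. One marker list is not reported here.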

Additional observations from a re-analysis of the deposited data

How the results depend on the processing

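The 3 members called higher, Plin1, Plin4 and Cidec, became 2 when at least 0.5 FPKM was asked of both groups, which leaves out Plin1, and 4 without a filter on low values, which lets in Cidea. They became 5 at a fold above 1.5, where 5.37% of all genes were called higher, and 2 at a fold above 4, where 0.262% were. The gap of 2.04 between the medians of fat-cell and broadly expressed droplet genes became 1.22 with 1 FPKM added, 1.24 with at least 0.5 FPKM in both groups and 1.24 with Plin5 and Pnpla2 counted as fat-cell genes. It was 1.64 to 2.18 with each fat-cell gene left out in turn. The 6 calls on the 4 pathway lists, all of them higher, became 3 with 1 FPKM added, which loses Prkar2b, Adora1 and Pparg. At a fold above 1.5 there were 11 calls on these lists, counted in either direction. Of these, Dgat1 and Tmem159, both of droplet formation, were lower in group E, by 1.53-fold and 1.58-fold. At that fold 5.37% of all genes were called higher and 5.9% lower. At a fold above 4 there were 0 calls on the lists, and Adrb3 with a fold of 3.95 falls just short. Of 72 single log2 values of members under alternatives, 4 moved by over 1.5 times, those of Plin1 and Cidea with a pseudocount. Scaling to the median gene, the upper quartile or Actb shifted all values by 0.01, 0.03 or 0.04 on the log2 scale and changed no call on a member. Using only rows marked OK, an alternative added after seeing the data, leaves out Lipe and kept 3 calls. No paired analysis was possible because each group has 1 value per gene. The mapped reads behind each value are not stated in the sources used here, so the error of a value near 0, such as Plin1 in group D, cannot be given.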

Other observations

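The table itself annotates genes with cell compartments and KEGG pathways, which gives lists that were not drawn up by hand. They were looked at after the values of the members had been seen. Of 52 genes annotated with lipid particle besides the members, 49 had at least 1 FPKM in either group, and 2 were called higher and 1 lower, beside 1.77% and 1.74% of all genes. The higher ones were Ces1d and Gapdh, the last at the low values given above. Aldh3b2, an aldehyde dehydrogenase that is anchored to droplets in mice, was lower, at 0.188 FPKM in group E and 2.78 FPKM in group D. The median log2 difference of the 49 genes was 0.10.

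Of 51 genes annotated with regulation of lipolysis in adipocytes besides the members, 40 had at least 1 FPKM in either group. Of these, 2 were called higher and 2 lower, beside 1.77% and 1.74% of all genes, and their median was -0.01. The higher genes were Adrb3 and Adora1. The lower genes were Fabp4, which carries released fatty acids away from Lipe, and Ptger3, the prostaglandin E receptor through which castor oil acts on the gut and which restrains lipolysis in fat cells, at 0.384 FPKM in group E and 1.62 FPKM in group D.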
